A study of Mus musculus with 6 samples.

Results

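The insulin-like growth factors, their receptors and their binding proteins were described here as 10 genes, chosen by symbol: the ligands Igf1 and Igf2, the receptors Igf1r and Igf2r, and the binding proteins Igfbp2 to Igfbp7. All 10 are among the 49568 genes of the count table, and 6 of them were high enough to test. RNA had been sequenced from MC/9, an established mouse mast cell line, in 3 rPTH libraries and 3 control libraries. For the rPTH libraries, mast cells cultured with 7F2, an established mouse osteoblast line, had been given 10 nM rPTH for 24 h before they were collected. The labels do not expand rPTH, which is taken here to be a preparation of parathyroid hormone. The control cells are labelled as having had no treatment, and whether they had also been grown on osteoblasts is not stated. Nothing in the labels says that the libraries of a group came from separate cultures. The p-values set the difference between groups against the spread of libraries within a group, and that spread may be technical.

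Insulin-like growth factors are small secreted proteins related to insulin that promote growth and survival. They signal through Igf1r, a tyrosine kinase at the cell surface, while Igf2r takes up and degrades IGF2 and also carries mannose-6-phosphate-tagged enzymes to lysosomes. Most secreted IGF is held by binding proteins, which lengthen its life and either limit or aid its access to the receptor. In bone, osteoblasts make IGFs and binding proteins, and parathyroid hormone is known to raise IGF1 output there.

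Promoter windows from RefSeq (GRCm38.p6) were found for all 10 genes, 14 windows of 300 bases in all, each with 250 bases before and 50 after a transcription start. Of these, 3 are shown. Igfbp5 had by far the most counts of the 10 genes and Igfbp2, its neighbour on chromosome 1, almost none, while Igf2r was the more abundant receptor. Capitals mark the core TGACG and the GC box GGGCGG on either strand, and the rest is in lower case.
Igfbp5 promoter, chr1:72874816-72875115, minus strand: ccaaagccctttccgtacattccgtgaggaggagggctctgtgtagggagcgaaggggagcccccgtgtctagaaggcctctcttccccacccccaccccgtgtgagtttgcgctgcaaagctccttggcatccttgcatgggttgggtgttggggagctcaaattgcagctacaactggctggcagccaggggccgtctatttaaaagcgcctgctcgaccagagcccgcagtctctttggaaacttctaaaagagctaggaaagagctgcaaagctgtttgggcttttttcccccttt
Igfbp2 promoter, chr1:72824230-72824529, plus strand: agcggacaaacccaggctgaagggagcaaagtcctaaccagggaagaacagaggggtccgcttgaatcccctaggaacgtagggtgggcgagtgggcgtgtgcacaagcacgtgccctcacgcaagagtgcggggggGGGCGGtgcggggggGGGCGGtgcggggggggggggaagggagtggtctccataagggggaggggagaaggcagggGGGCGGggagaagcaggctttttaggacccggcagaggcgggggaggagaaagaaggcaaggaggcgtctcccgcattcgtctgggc
Igf2r promoter, chr17:12769657-12769956, minus strand: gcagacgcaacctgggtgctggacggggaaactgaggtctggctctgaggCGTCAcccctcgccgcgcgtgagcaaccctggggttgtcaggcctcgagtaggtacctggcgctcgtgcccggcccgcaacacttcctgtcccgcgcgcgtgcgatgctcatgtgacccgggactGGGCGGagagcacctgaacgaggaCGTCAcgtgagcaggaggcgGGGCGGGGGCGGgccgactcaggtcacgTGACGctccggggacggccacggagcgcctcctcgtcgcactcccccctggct

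The element bound by CREB downstream of cyclic AMP is TGACGTCA, which contains its shorter core TGACG, and parathyroid hormone receptors raise cyclic AMP. TGACGTCA was in 0 of the 14 windows, against 1.79% of all 32851 RefSeq windows of that length. TGACG was present 3 times in the Igf2r window, which only 340 of all windows (1.03%) matched or exceeded. That share is over windows of any GC content, and the Igf2r window, with the most copies of the 14, had 70.7% GC. TGACG was also present once in 2 of the 4 Igf2 windows and in none of the other genes' windows. At least 1 copy was thus in 3 of the 14 windows, against 20.8% of all windows. The GC box GGGCGG, bound by Sp1, was in 6 of the 14 windows, from 5 genes, against 35.7% of all windows. TATAAA was in 2 of the 14, those of Igfbp4 and Igfbp6, against 13.6% of all windows. The Igfbp5 window held none of these letters. These matches describe the letters and not binding.

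Libraries differed in ways that touch these genes. Total counts were 30623648 to 33577977 in rPTH libraries and 22282095 to 24993606 in controls. Control 1 stood apart. Against the mean of controls 2 and 3, the median protein-coding gene of up to 1 kb of exon was higher by 1.1 on the log2 scale in control 1, and that of over 8 kb differed by -0.62. The 6 tested genes span 1.11 to 16.79 kb, so values with and without control 1 are given for each. Mast cell transcripts were abundant, with Cpa3 at 1870 ± 252 CPM in rPTH libraries and 2120 ± 449 CPM in controls (SD, n = 3 each), though Mcpt4 had 13 counts in all. CPM are counts scaled to the library total and, here, by TMM factors, which adjust for library composition. Summed mast cell markers had 6660, 8590 and 8180 CPM in rPTH 1, 2 and 3 and 9860, 8220 and 8260 CPM in control 1, 2 and 3, and 5 of the 14 tested lay above a log2 fold change of 0 (median -0.21).

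Transcripts on the list of osteoblast and stromal cell markers were also present, and their sum was higher in rPTH libraries. Which cells made them was not tested. The 35 markers summed to 4940, 3180 and 3220 CPM in rPTH 1, 2 and 3, against 2960, 2500 and 2450 CPM in control 1, 2 and 3. The median log2 fold change of the 28 that could be tested was 0.54, 26 were above 0, and 0 passed. Most abundant by group mean were Fn1 (758 and 425 CPM in rPTH and control libraries), Spp1 (665 and 537) and Bgn (633 and 466). Some listed genes were nearly absent, with Fap at 17, Dcn at 13, Thy1 at 6 and Lum at 5 counts in all. Among the defining osteoblast genes, Runx2 had 4109 and Alpl 3733 counts over all libraries, Sp7 had 118, Bglap 22, Bglap2 19 and Ibsp 3. Together these summed to 44.7 to 69.8 CPM in rPTH libraries and 34.8 to 44.1 CPM in controls. Fewer cells of a type and less RNA per cell cannot be told apart in such samples. Endothelial markers summed to 150 to 196 CPM in rPTH libraries and 185 to 205 CPM in controls, of which Pecam1 alone made 146 to 193 and 182 to 201 CPM, with the defining gene Cdh5 at 15 counts in all. Adipocyte markers summed to 23.5 to 38.3 CPM in rPTH libraries and 19.7 to 47.4 CPM in controls, nearly all from Fabp4 and Pparg (Adipoq, 14 counts in all). Macrophage markers summed to 5.74 to 6.72 CPM in rPTH libraries and 5.01 to 7.49 CPM in controls (C1qa, 2 counts in all).

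The family was dominated by a single binding protein. Per kilobase of exon, Igfbp5 had 303 ± 28.8 CPM per kb in rPTH libraries and 269 ± 90.4 CPM per kb in controls (SD, n = 3 each). For scale, the stem cell factor receptor Kit, a defining mast cell gene, had 57.3 ± 6.01 and 55.5 ± 21 CPM per kb in rPTH and control libraries. By group mean, Fcer1a (1370 and 1610 CPM per kb), Cpa3 (1230 and 1400) and Tpsb2 (337 and 517) lay above Igfbp5. The other mast cell markers lay below Igfbp5. Igfbp5 made up 86.3%, 90.9% and 91.8% of the counts of the 10 genes in rPTH 1, 2 and 3, and 83.4%, 92.5% and 92% in control 1, 2 and 3. Igfbp5 ranked 14th to 29th of all genes by count in 5 libraries and 173rd in control 1.

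Igfbp7 came next at 47.8 ± 12.8 CPM per kb in rPTH libraries and 48.6 ± 29.2 in controls. Over the 6 libraries its range of 30 to 82.3 CPM per kb lay below the 167 to 342 of Igfbp5. Igf2r (3.15 to 12.3 CPM per kb), Igfbp6 (3.73 to 12.8) and Igfbp4 (2.88 to 5.81) followed, and these 3 neighbours overlapped each other. The Igf1r range of 1.79 to 2.85 CPM per kb lay just below that of Igfbp4. The last 4 genes, Igf2, Igf1, Igfbp2 and Igfbp3, were at 0 to 0.0885 CPM per kb. The order was the same with the length of the longest annotated transcript and with library totals alone.

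**Figure D1:**
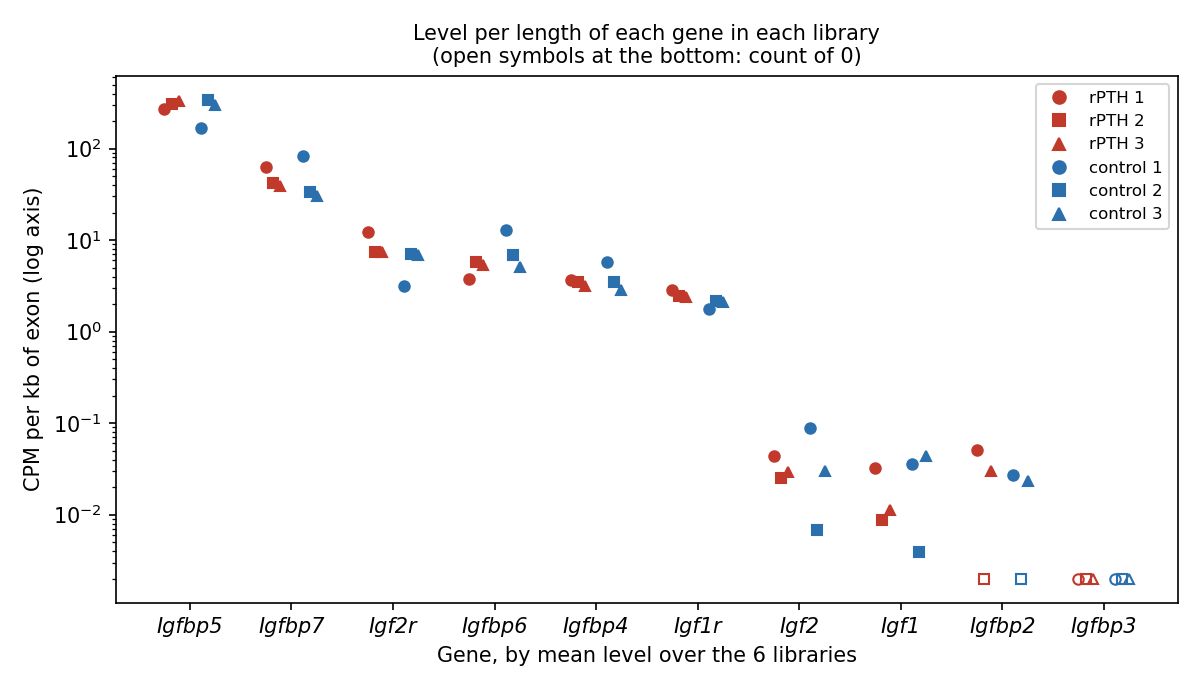
Level per length of each of the 10 genes (CPM per kb of exon, log axis), with rPTH libraries left of controls and 1 symbol per library. Igfbp5 lies above all others in every library, at 167 to 342 CPM per kb, and Igfbp3 had a count of 0 in all 6.

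Transcripts of the ligands were near the limit of detection. Igf1 (chromosome 10, 87858265 to 87937042 on GRCm38, GENCODE M21) had 10, 3 and 4 counts in rPTH 1, 2 and 3 and 7, 1 and 10 counts in control 1, 2 and 3. Igf2, the fetal growth factor expressed from the paternal allele (chromosome 7, 142650766 to 142666816), had 8, 5 and 6 counts in rPTH 1, 2 and 3 and 10, 1 and 4 counts in control 1, 2 and 3. The groups overlapped for both, and control 2 was the lowest library for each. The floor of 3 counts, which a count of 0 cannot exclude, was 0.0893 to 0.135 CPM of the library total, for counting error only. Both ligands, at 1 to 10 counts per library, were below the filter on low counts. A difference between rPTH and control was thus not tested with the settings reported, and a small one could be missed at this depth. In the authors' deposited table the log2 fold change was -0.22 for Igf1 (p = 0.577) and -0.08 for Igf2 (p = 0.845), with no adjusted p. Igf2 also shares 3596 exon bases with Gm49394 on its own strand, a gene not listed in the count table.

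Both receptors were detected in every library, and for both all 3 rPTH libraries lay above all 3 controls, as they did for 8.44% of all tested genes. Igf1r (chromosome 7, 67952827 to 68233668), the signalling receptor, had 47.8, 41 and 39.9 CPM in rPTH 1, 2 and 3 and 30, 35.9 and 35.6 CPM in control 1, 2 and 3. The lowest rPTH library thus exceeded the highest control by a small margin. The log2 fold change was 0.34 ± 0.16 (SE), with an adjusted p of 0.619 in edgeR's quasi-likelihood test (Benjamini-Hochberg over 16696 genes).

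Igf2r (chromosome 17, 12682406 to 12769664) had 115, 69.7 and 69.7 CPM in rPTH 1, 2 and 3 and 29.3, 65.5 and 64.4 CPM in control 1, 2 and 3. Here rPTH 1 was far above and control 1 far below the other 4 libraries, which lay close together. The log2 fold change was 0.67 ± 0.36 (SE; edgeR adjusted p = 0.628). Igf2r is also the host of the antisense RNA Airn, which silences the paternal Igf2r allele in many tissues. Airn had 34 counts in all and shares no exon base with Igf2r.

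No gene of the family passed the test. Of the 6 tested, 3 had a log2 fold change above 0 and 3 below, with a median of 0.07 against -0.09 over all 16696 tested genes. In edgeR 0 of the 6 had an adjusted p under 0.05, as had 0% of all tested genes, and 0 of the 6 had an unadjusted p under 0.05, against 7.87% of all. With DESeq2 and with limma-voom the counts for the family were also 0 and 0. The groups did not overlap for 2 of the 6, Igf1r and Igf2r, both higher with rPTH. Over all tested genes the groups did not overlap for 16.8%. In the authors' deposited table the log2 fold change was 0.39 for Igf1r (adjusted p = 0.454) and 0.59 for Igf2r (adjusted p = 0.496), and the other genes with an adjusted p were at 0.583 (Igfbp6) or above.

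The difference of both receptors was smaller under some settings. Without control 1 the log2 fold change was 0.25 ± 0.10 for Igf1r (edgeR adjusted p = 0.4; range over 15 alternatives 0.4 to 0.97) and 0.37 ± 0.23 for Igf2r (0.522; range 0.454 to 0.922). Without rPTH 1, the library with the highest stromal marker sum, the values were 0.26 ± 0.19 and 0.39 ± 0.38. With each library's trend against exon length and GC content removed, the value of Igf1r, the longest of the 10 genes, was 0.03 ± 0.19, and that of Igf2r was 0.54 ± 0.26. Over the tested genes with more than 8 kb of exon the median log2 fold change was 0.22, against -0.24 at 1.5 to 3 kb.

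Among binding proteins, Igfbp5 is a matrix-binding member that bone cells secrete in quantity. It lies on the minus strand of chromosome 1 (72857932 to 72874884). It had 51561, 63497 and 70635 counts in rPTH 1, 2 and 3 and 19858, 53048 and 41276 counts in control 1, 2 and 3. Scaled, this was 1630, 1840 and 1980 CPM in rPTH libraries and 1010, 2050 and 1780 CPM in controls. Control 1 was the lowest and control 2 the highest of all, so that the groups overlapped. The log2 fold change was 0.17 ± 0.31 (SE; edgeR adjusted p = 0.815), and it was -0.09 ± 0.13 without control 1.

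Igfbp2, a circulating carrier in many tissues, ends 5457 bases from the end of Igfbp5, on the opposite strand. It had 7 counts over the 6 libraries, 3, 0 and 2 in rPTH and 1, 0 and 1 in controls, against 299875 counts of Igfbp5. The Igfbp2 window shown above holds 3 GC boxes and the Igfbp5 window none of the letters searched. Igfbp3, the main carrier of IGFs in serum (chromosome 11, 7206086 to 7213923), had 0 counts in all 6 libraries, which allows up to 0.0893 to 0.135 CPM in a library.

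Igfbp7 (chromosome 5, 77349240 to 77408041) binds IGFs weakly and is best known as a matrix protein of blood vessels. It had 75.4, 51.4 and 46.6 CPM in rPTH 1, 2 and 3 and 99.5, 40.6 and 36.3 CPM in control 1, 2 and 3. Control 1 was the highest library, while controls 2 and 3 were the lowest. The log2 fold change was -0.02 ± 0.42 (SE; edgeR adjusted p = 0.983). Without control 1 all 3 rPTH libraries lay above both remaining controls, as for 16.7% of all tested genes, and the value was 0.57 ± 0.21 (edgeR adjusted p = 0.4; range over 15 alternatives 0.4 to 0.999). It was 0.51 ± 0.30 with the length and GC trend removed. Igfbp7 shares 85 exon bases with Polr2b on the other strand, and the sources used here do not say whether reads were counted by strand.

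Igfbp4 (chromosome 11, 99041244 to 99054392), a member known in bone as an inhibitor of IGF action, had 16.3, 15.2 and 14.1 CPM in rPTH 1, 2 and 3 and 25.7, 15.5 and 12.7 CPM in control 1, 2 and 3. The rPTH libraries lay within the range of the controls. The log2 fold change was -0.24 ± 0.28 (SE; edgeR adjusted p = 0.73) and 0.09 ± 0.13 without control 1. Igfbp6 (chromosome 15, 102144362 to 102149511), which prefers IGF2 to IGF1, had 4.15, 6.37 and 5.91 CPM in rPTH 1, 2 and 3 and 14.2, 7.66 and 5.61 CPM in control 1, 2 and 3. Its log2 fold change, -0.74 ± 0.38 (SE; edgeR adjusted p = 0.628), was the largest in size of the 6. It was -0.28 ± 0.26 without control 1 and -0.18 ± 0.30 with the length and GC trend removed.

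**Figure D2:**
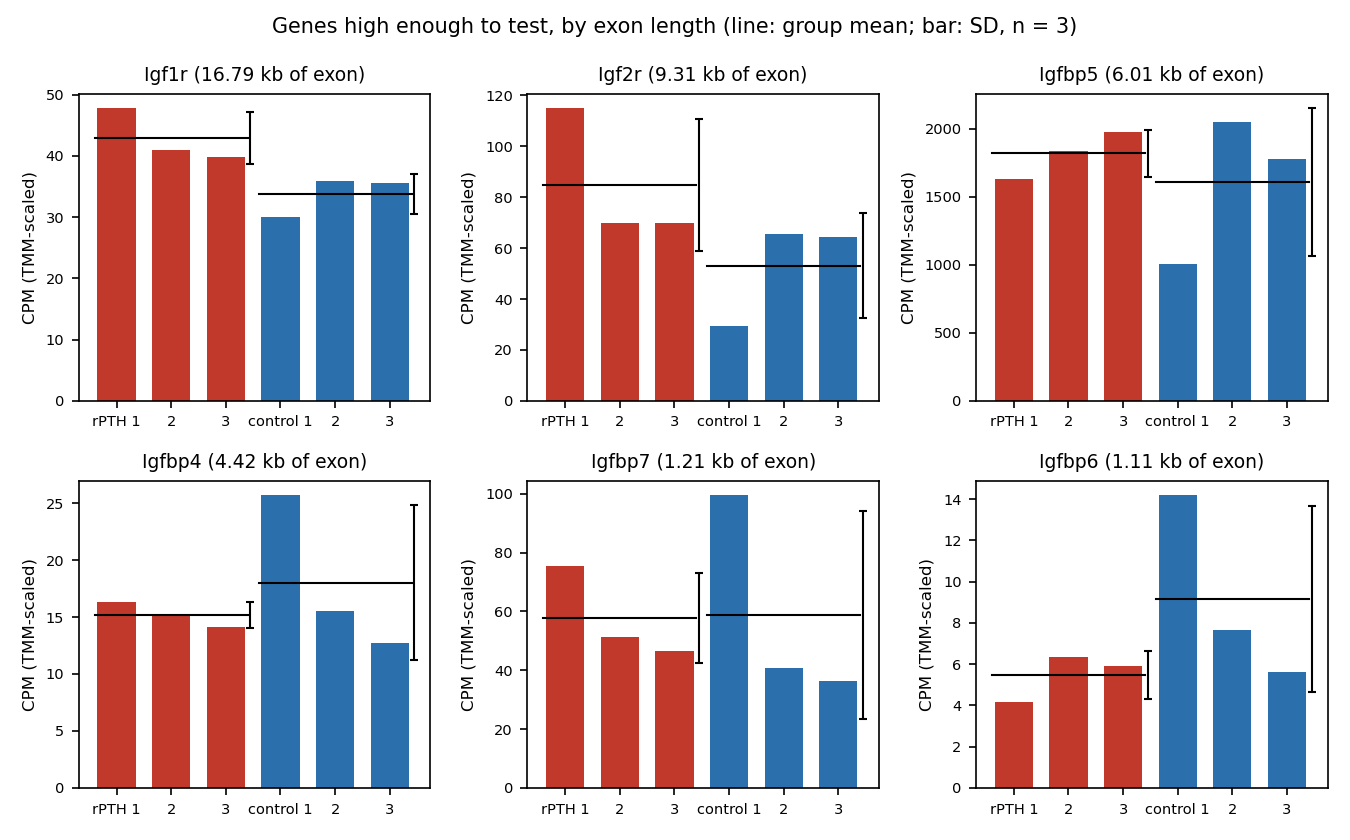
TMM-scaled CPM of the 6 tested genes in each library, rPTH left of control, with the group mean (line) and SD (bar, n = 3). Control 1 is the lowest library for Igf1r, Igf2r and Igfbp5 (6.01 to 16.79 kb of exon) and the highest for Igfbp4, Igfbp7 and Igfbp6 (1.11 to 4.42 kb).

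Control 1 thus split the 6 tested genes by length. Its log2 level minus the mean of controls 2 and 3 was -0.25 for Igf1r, -1.15 for Igf2r and -0.93 for Igfbp5, the 3 longest of the 6. It was 0.87 for Igfbp4, 1.37 for Igfbp7 and 1.12 for Igfbp6, the 3 shortest of the 6. Over all tested protein-coding genes the median of the same difference was -0.62 above 8 kb, -0.19 at 5 to 8 kb, 0.18 at 3 to 5 kb and 0.96 at 1 to 1.5 kb. The sign for the 6 genes was that of the median gene of their length class.

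**Figure D3:**
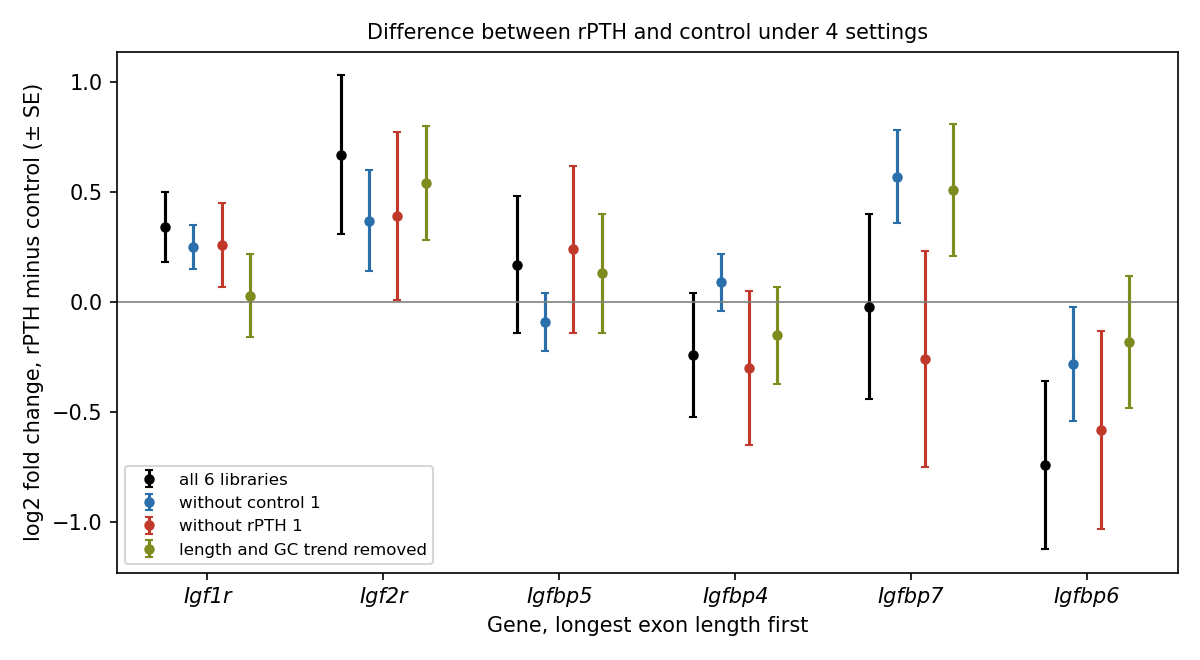
Log2 fold change (rPTH minus control, ± SE) of the 6 tested genes with all libraries, without control 1, without rPTH 1, and with the length and GC trend removed. Igf1r and Igf2r lie above 0 in all 4 settings and Igfbp6 below, while Igfbp7 runs from -0.26 to 0.57.

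The genes also differed in how they varied with the markers of the 2 cell types. Per 1000 counts of stromal markers, Igfbp7 had 15.3, 16.2 and 14.5 counts in rPTH 1, 2 and 3 and 33.6, 16.2 and 14.8 counts in control 1, 2 and 3. Igf2r had 23.2, 22 and 21.6 counts in rPTH 1, 2 and 3 and 9.91, 26.2 and 26.3 counts in control 1, 2 and 3. With control 1 left out, both varied less on this scale than in CPM. The SD of log2 values over the other 5 libraries was 0.07 for Igfbp7 and 0.14 for Igf2r, against 0.40 and 0.35 for their CPM. Over all 6 libraries it was 0.47 and 0.53 on the stromal scale, against 0.56 and 0.63 for CPM, so the narrow spread rests on leaving out control 1. The share of all tested genes that narrowed in this way is not given here. Per 1000 counts of mast cell markers, a scale chosen after seeing the data, the SD without control 1 was 0.53 and 0.49. In rPTH 1, where the stromal sum was highest, both had their highest CPM outside control 1. The same held for Igf1r (47.8 CPM) and Igfbp4 (16.3 CPM), but not for Igfbp5 or Igfbp6.

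Igfbp5 varied more on the stromal scale. Per 1000 stromal counts it had 331, 579 and 614 counts in rPTH 1, 2 and 3 and 340, 820 and 726 counts in control 1, 2 and 3. Per 1000 mast cell marker counts it had 245, 214 and 242 counts in rPTH 1, 2 and 3 and 102, 249 and 216 counts in control 1, 2 and 3. Outside control 1 the SD of its log2 values was 0.11 on the mast cell scale, close to the 0.13 of its CPM, and 0.50 on the stromal scale. Over all 6 libraries these were 0.50, 0.38 and 0.55. Outside control 1, Igfbp6 had 0.22 on the mast cell scale, 0.32 in CPM and 0.69 on the stromal scale. Igfbp4 (0.14) and Igf1r (0.17) varied least in CPM, with 0.25 and 0.30 on the mast cell scale and 0.34 and 0.24 on the stromal scale.

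On the stromal scale the groups overlapped for both receptors. The log2 difference of the ratios, rPTH minus control, was -0.15 for Igf1r (pooled SD 0.26) and 0.23 for Igf2r (pooled SD 0.57). Without control 1 it was -0.32 for Igf1r and -0.24 for Igf2r, and without rPTH 1 it was -0.02 and 0.2. Per stromal count Igfbp4 and Igfbp6 were lower in all 3 rPTH libraries than in all 3 controls, with log2 differences of -0.67 and -1.15 (pooled SD 0.33 and 0.62). On this scale all 3 rPTH libraries lay below all 3 controls for 46.7% of all tested genes. The stromal sum itself was higher in every rPTH library than in every control, and the groups of both genes overlapped in CPM. Without control 1 the differences were -0.47 and -0.86, and without rPTH 1 they were -0.52 and -0.75. These ratios are descriptions with no test, and the part of stromal transcripts in the levels was not tested.

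**Figure D4:**
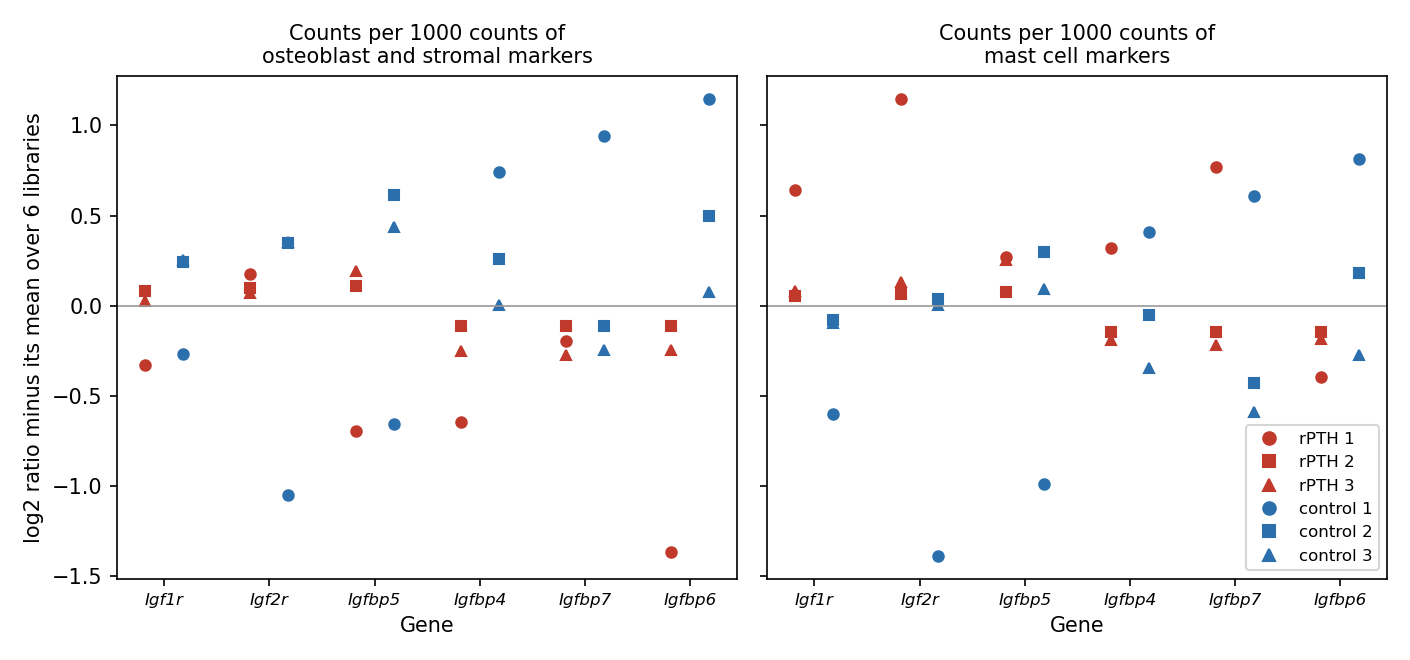
Counts of the 6 tested genes per 1000 counts of summed stromal markers (left) and mast cell markers (right), as log2 minus the mean over 6 libraries, with rPTH left of control. Outside control 1 the libraries lie close together for Igfbp7 and Igf2r on the left (SD 0.07 and 0.14) and for Igfbp5 on the right (SD 0.11, against 0.13 in CPM).

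The genes whose profiles over the 6 libraries were closest to these were found by the root mean square difference of centred log2(CPM + 0.5) values. For Igf2r these were Cobll1 (0.0432), Stard9 (0.0516) and Thbs1 (0.061), the last encoding the matrix glycoprotein thrombospondin 1. For all 3, as for Igf2r, rPTH libraries lay above controls, with Thbs1 at 186, 118 and 116 CPM in rPTH 1, 2 and 3 and 49.7, 103 and 97 CPM in control 1, 2 and 3. For Igfbp5 the closest were Herc3 (0.0381), Alpk2 (0.0445) and the tyrosine phosphatase Ptpn13 (0.0482). Ptpn13 had 156, 179 and 194 CPM in rPTH 1, 2 and 3 and 99.1, 212 and 186 CPM in control 1, 2 and 3. Control 1 was the lowest library for each of these genes, and the groups overlapped for the 3 nearest to Igfbp5. Such placements follow from how the genes were picked and are not separate results. The ligands were too low for such a profile.

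The rest of the pathway was represented by 63 further genes, of which 51 could be tested. In edgeR 0 of the 51 passed (0% of all tested genes), and 3 had an unadjusted p under 0.05 (7.87% of all). Their log2 fold change was above 0 for 32 and below for 19, with a median of 0.12 against -0.09 over all tested genes. The groups did not overlap for 9, 8 with rPTH higher and 1 lower, against 8.44% and 8.39% of all tested genes. Insulin itself (Ins1 and Ins2), the liver carrier Igfbp1, the serum subunit Igfals and the imprinted RNA H19 had 1 to 27 counts each over all libraries.

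Binding protein proteases and their inhibitors had 5 tested genes. Adam12, a metalloprotease that can cleave IGFBP3 and IGFBP5, had 6.63, 4 and 3.81 CPM in rPTH 1, 2 and 3 and 1.21, 3.67 and 2.5 CPM in control 1, 2 and 3. All rPTH libraries lay above the controls, by a log2 fold change of 0.96 ± 0.45 (SE; edgeR adjusted p = 0.619). Stc2, an inhibitor of the IGFBP4 protease PAPP-A, was the tested pathway gene with all rPTH libraries below the controls (7.45, 7.91 and 8.85 CPM in rPTH libraries, against 10.1, 9.24 and 11 CPM in controls; log2 fold change -0.33 ± 0.19). With library totals in place of TMM factors its groups overlapped. Pappa itself had 3.04, 1.39 and 2.44 CPM in rPTH libraries and 0.607, 1.12 and 1.42 CPM in controls, and the groups overlapped narrowly. The log2 fold change of Pappa, 1.11 ± 0.45 (SE; edgeR adjusted p = 0.619), was the largest in size of the tested pathway genes. Stc1, listed in the same role as Stc2, had a log2 fold change above 0 (0.74 ± 0.36), and its groups overlapped. Pappa and Stc1 were named after their values were seen. Htra1, a secreted protease that also cleaves binding proteins, was the most abundant of this role per length (6.61 CPM per kb in rPTH libraries and 6.53 in controls), with a log2 fold change of 0.02 ± 0.40.

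Among receptors and adaptors, 7 of 14 tested genes had a log2 fold change above 0. Irs1, the docking protein that passes the signal of Igf1r and the insulin receptor to PI3K, had 8.02, 4.37 and 5.1 CPM in rPTH 1, 2 and 3 and 1.37, 3.33 and 4.06 CPM in control 1, 2 and 3. Its log2 fold change was 0.99 ± 0.45 (SE; edgeR adjusted p = 0.619). The ubiquitin ligase Nedd4 was the most abundant of this role per length, at 88.2 CPM per kb in rPTH libraries and 73.6 in controls, and its groups overlapped. Of 24 PI3K, AKT and mTOR genes, all tested, 15 lay above 0. Pik3cb, a catalytic PI3K subunit, had a log2 fold change of 0.31 ± 0.20 with groups that did not overlap. Akt1, the kinase of highest level per length in this role, had 77.1 CPM per kb in rPTH libraries and 90 in controls, a log2 fold change of -0.22 ± 0.18.

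The 3 IGF2 mRNA-binding proteins were all above 0, with a median of 0.34. Igf2bp3 had 13.4, 8.95 and 9.41 CPM in rPTH 1, 2 and 3 and 3.59, 6.85 and 7.25 CPM in control 1, 2 and 3, a log2 fold change of 0.84 ± 0.33 (SE; edgeR adjusted p = 0.619). Igf2bp2 had a log2 fold change of 0.34 ± 0.22, and all 3 rPTH libraries lay above the controls for both. In the growth hormone axis, which drives IGF1 production, the receptor Ghr (0.58 ± 0.22) and the kinase Jak2 (0.35 ± 0.22) also had groups that did not overlap. Stat5b, of highest level per length there, had a log2 fold change of 0.01 ± 0.20. Kazald1, a protein related to binding proteins, was the only carrier that could be tested (-0.45 ± 0.35).

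Without control 1 the log2 fold changes were 0.64 for Irs1, 0.62 for Adam12, 0.57 for Igf2bp3, 0.55 for Ghr, 0.35 for Igf2bp2, 0.16 for Pik3cb, 0.15 for Jak2 and -0.33 for Stc2. With the length and GC trend removed they were 0.85, 0.79, 0.65, 0.15, 0.19, 0.12, 0.24 and -0.34 in the same order, and without rPTH 1 they were 0.7, 0.66, 0.64, 0.36, 0.1, 0.2, 0.27 and -0.27. These 8 kept their sign under each of the 15 alternatives. The sign of Htra1 and Stat5b differed under 3 alternatives each and that of Nedd4 under 1.

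**Figure D5:**
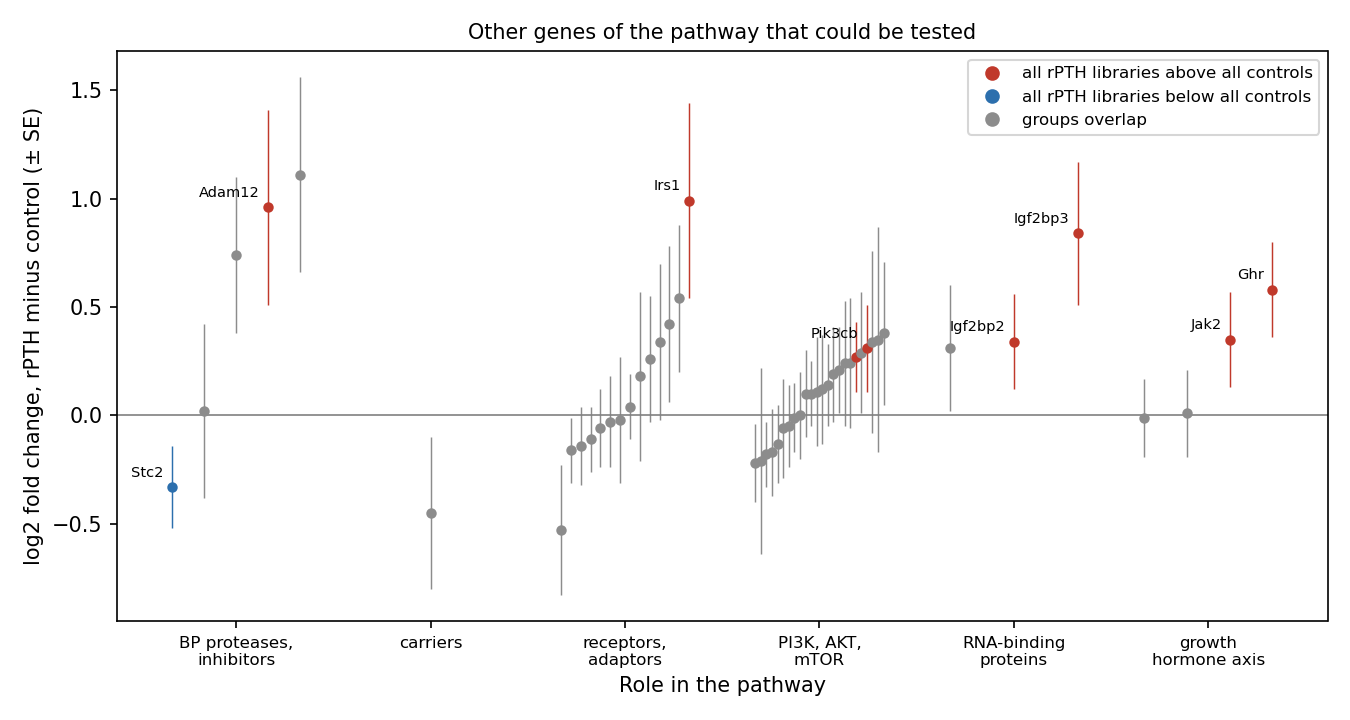
Log2 fold change (rPTH minus control, ± SE) of the 51 tested pathway genes by role, with genes whose groups do not overlap in colour. The 8 genes picked for groups that do not overlap are labelled, from Irs1 at 0.99 to Stc2 at -0.33, and none passed the test. Pappa, at 1.11, is not labelled because its groups overlapped.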

How the data were processed

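RNA of 6 MC/9 libraries was analysed from the gene counts the authors deposited, which are whole numbers and were not normalized. The submitters' processing notes name, with no role or order, R 3.3.0, DESeq2 1.12.4, featureCounts, Subread 1.5.0p3, STAR 2.5.2b and Trimmomatic 0.36, and the builds GRCm38.p5 and mm9. The deposited signal table is those counts divided by 1 size factor per library (0.7739 to 1.236), and the deposited log2 table holds regularised values; neither entered a test. The authors' deposited comparison gives a mean signal, a log2 fold change, a score (Wald statistic) and a p-value per gene.

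Here edgeR 4.0.16 in R 4.3.3 was run over all genes, leaving 16696 of 49568 (TMM factors, filterByExpr with a minimum count of 10). It used the quasi-likelihood test, Benjamini-Hochberg adjustment and a threshold of 0.05. It was also run on simulated counts, which had no length trend like that of control 1. That run does not show how the test performs on libraries like these. The standard error is the log2 fold change over the root of the F statistic. Lengths, GC content and coordinates came from GENCODE M21, in which 95.5% of symbols were found. DESeq2 1.42.0 and limma 3.58.1 were alternatives. No pair of libraries was a duplicate (chi-square of counts per degree of freedom 13.3 to 291).

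The genes and lists were chosen with earlier results of these data known. From the pathway list the text names up to 8 tested genes whose groups do not overlap, by size of log2 fold change, and the gene of highest level per length in each role. Closest profiles were sought for the most abundant member of each role, among genes with a mean of at least 1 CPM.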

Additional observations from a re-analysis of the deposited data

How the results depend on the processing

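In all 15 alternatives, as with the settings reported, 0 genes passed the edgeR, DESeq2 or limma threshold, and so 0 of the 10 family genes and 0 of the pathway genes. Genes at an unadjusted p under 0.05 numbered 1314 (1995 with DESeq2, 790 with limma-voom), and 272 to 2165 when single libraries were left out. Of the family this held for 0 as reported, for 2 without control 1 (Igf1r and Igfbp7), and for 1 each without control 3 (Igfbp6) and with no low-count filter (Igf2r). No sign differed for Igf1r (0.03 to 0.46), Igf2r (0.37 to 0.89) and Igfbp6 (-0.88 to -0.18). The sign of Igfbp4 (0.09) and Igfbp5 (-0.09) turned without control 1, and without single libraries they ran from -0.34 to 0.09 and from -0.09 to 0.38. That of Igfbp7, -0.02 as reported, turned with RLE factors (0.06), library totals (0.18), no low-count filter (0.15), DESeq2 (0.08), limma-voom (0.11), protein-coding genes alone (0.02), the length and GC trend removed (0.51) and the replicate block (0.1), and without single libraries it ran from -0.26 to 0.57. The replicate numbers were not taken as pairs: deviations of same-numbered libraries correlated at -0.131, -0.323 and 0.142, and 1 of 6 libraries correlated best with its own number. With the replicate block 0 genes passed and 525 had an unadjusted p under 0.05. The median log2 fold change of all genes was -0.09 as reported and 0.04 with library totals. Relative to mast cell markers, chosen after seeing the data, the differences were 0.51 (Igf1r), 0.9 (Igf2r), -0.01 (Igfbp4), 0.4 (Igfbp5), -0.48 (Igfbp6) and 0.27 (Igfbp7). The cause of these changes was not tested. Igf1, Igf2 and Igfbp2 were under the filter on low counts as reported, and 0 of them passed where an alternative tested them; Igfbp3 had no count.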
